A study of Canis lupus familiaris with 9 samples.

Results

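Dog skin cells grown as neural precursors (SKN) were compared with dog skin fibroblasts (Fibroblast) over all 15947 genes that the platform's table names, on the 3 arrays of each group, 6 of the 9 arrays in the study. Each gene was read from 1 probe set, the one with the highest mean over the 9 arrays. Both kinds of culture came from surgical skin of pet dogs (Canis lupus familiaris), cut up, digested with trypsin and DNAse, strained and plated on dishes not treated for tissue culture. The fibroblasts grew in a DMEM and F12 mixture with fetal bovine serum and Glutamax. The SKN cells grew in the same mixture without serum, with EGF, FGF and the B-27 supplement, and at first formed floating spheres. Neither group received a treatment, and no genotype, breed or age is given. The remaining 3 arrays, of neural precursors from brain (Brain), entered the statistical fit as a source of spread. Whether the arrays of a group stand for different dogs, or different cultures of 1 dog, is not given, and the p-values therefore rest on the spread between these samples, which may be technical. Medium, culture as spheres and cell type differ together between the groups and cannot be told apart.

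Fibroblasts of the dermis make and remodel collagenous matrix and, in serum, build actin bundles and adhesions. Cells grown from skin as floating spheres in growth factors without serum have been described as precursors able to give neural and mesenchymal progeny. Receptors decide which hormones and transmitters a cell can answer, carriers and enzymes handle the lipids, metals and amino acids it takes up, and actin regulators set its shape.

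Values are log2 signals as deposited, so that a difference of 1 is a 2-fold difference, and triplets of values are given in the order of arrays 1, 2 and 3. Differences are SKN minus Fibroblast, each given ± its standard error (SE) as fitted, with n = 3 arrays in each group. A gene was called, and is described as having risen or fallen, where limma's moderated test gave an adjusted p under 0.05 after Benjamini-Hochberg adjustment over all 32205 probe sets. Without detection calls in the table, dim signals are no evidence that the RNA was missing. In cultures of mixed cells, fewer cells of a type and less RNA per cell cannot be told apart.

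The markers of cell types gave no support to the label neural precursor, but the neural precursor panel was a weak test of it. Of 7 measured neural precursor markers, 0 were called and 2 had an unadjusted p under 0.05, and none of the 7 lay above the fibroblasts on all 3 SKN arrays. The 2 were PAX6 and FABP7, both lower in SKN, and 3 lay below on all 3 arrays (PAX6, MSI1 and FABP7). Over all named genes 4.55% were called, and 3197 of 15947 had an unadjusted p under 0.05. SKN lay above in 11.7% of them and below in 15%, so such counts among 7 genes say little. The neural stem cell factor SOX2 read 4.89, 5.57 and 5.28 in SKN and 5.0, 5.35 and 5.16 in Fibroblast. The intermediate filament gene NES read 6.89, 6.29 and 6.82 in SKN and 6.63, 6.86 and 6.48 in Fibroblast. In Brain SOX2 read 7.36, 7.16 and 5.34 and NES 8.73, 8.31 and 7.96. The other measured markers had Brain and Fibroblast means of 6.08 and 5.81 (PAX6), 4.71 and 4.87 (SOX1), 3.48 and 3.66 (MSI1), 2.38 and 2.89 (PROM1) and 2.24 and 2.53 (FABP7). Their SKN means were 4.47, 4.87, 3.49, 3.22 and 2.25 in the same order. Most of the panel thus did not set the brain precursors apart either, and it cannot decide the label. Of 10 fibroblast markers 1 was called, S100A4, and it was higher in SKN. The array means over these 10 markers were 10.90, 10.60 and 10.71 in SKN against 10.36, 10.26 and 10.07 in Fibroblast. Of the 10 markers 4 lay above the fibroblasts on every SKN array and 4 below, beside 11.7% and 15% of all genes. Those below were COL1A1, COL1A2, COL3A1 and DCN, and the median difference of the 10 was 0.14. Among the other cell types, 1 of 7 neuronal markers rose (STMN2), 1 of 5 astrocyte markers rose (ALDH1L1) and 1 of 6 endothelial markers fell (KDR). The means of STMN2 were 6.99 in SKN, 3.08 in Fibroblast and 3.45 in Brain. Those of ALDH1L1 were 5.75, 4.95 and 4.52 and those of KDR 4.01, 5.33 and 5.65, in the same order. Markers of keratinocytes (6), melanocytes (6), leukocytes (6), adipocytes (5), pericytes and smooth muscle (7), Schwann cells and crest (5) and the oligodendrocyte lineage (3) had 0 calls, with 1, 0, 2, 1, 2, 0 and 0 at an unadjusted p under 0.05. On Fibroblast 1 the Schwann cell cadherin CDH19 read 5.86 and the Schwann and crest mean was 5.95, against 2.14 and 2.82 and means of 4.61 and 4.57 on the other fibroblast arrays. The SKN cultures are therefore called by their short label alone. STMN2 kept its call in all 9 removals of 1 array. S100A4 lost its call without Fibroblast 1, 2 or 3 or SKN 1, 2 or 3 (adjusted p up to 0.0655) and ALDH1L1 without any array but SKN 3 and Brain 1 (adjusted p up to 0.115). KDR lost its call without Fibroblast 1 or 3, SKN 1, 2 or 3 or Brain 3 (adjusted p up to 0.0934).

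Of the 15947 genes 726 were called (4.55%), 391 of them higher in SKN (2.45%) and 335 lower (2.1%). The whole table had 1076 calls among 32205 probe sets (3.34%). An unadjusted limma p under 0.05 was reached by 3197 of the 15947 genes, the background for such counts in the lists below. Of the called genes 457 differed at least 2-fold (257 higher, 200 lower) and 81 at least 8-fold (53 higher, 28 lower). The median difference was 1.37 among genes called higher and -1.14 among genes called lower, against -0.04 over all named genes. The groups did not overlap in 4262 genes (26.7%), with SKN above in 1872 (11.7%) and below in 2390 (15%), and the 726 called genes were all among them. With 1 array left out the genes called higher and lower numbered 184 and 156 without Fibroblast 3, 241 and 169 without SKN 1, 236 and 178 without SKN 3 and 218 and 232 without Fibroblast 2. Between the nearest arrays of the groups the called genes had a median gap of 0.76, and 257 of them had a gap over 1. With the genes ranked by mean signal into 4 bins of equal size, the share called was 1.05% in the dimmest, 4.16% and 6.57% in the next and 6.42% in the brightest. In 28 called genes (3.86%) the group with the lower mean lay under 2.94, the lower quartile of all values in the table, where a difference compares signals more than amounts of RNA.

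**Figure D1:**
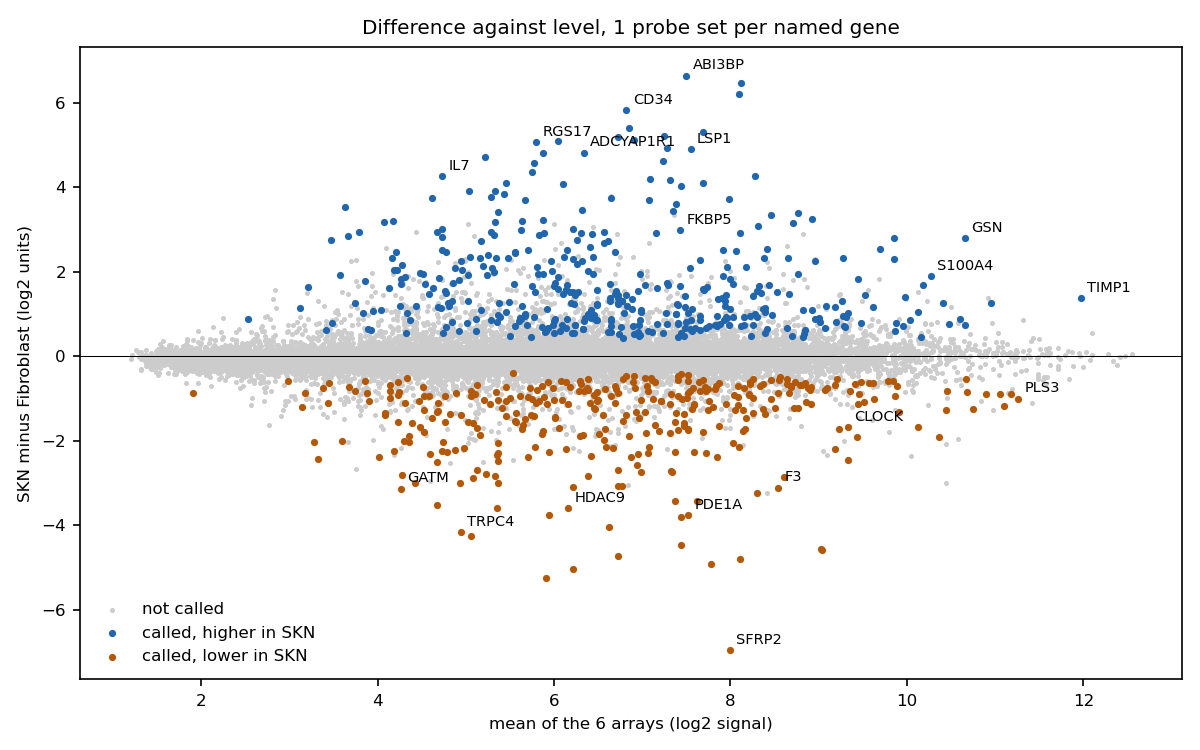
Difference between SKN and Fibroblast (vertical axis, log2 units) against the mean of the 6 arrays (horizontal axis, log2 signal), 1 point for each of the 15947 named genes. Blue points are the 391 genes called higher in SKN, orange points the 335 called lower and grey points the genes not called.

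The widest separations are given first. CD34, a sialomucin of stromal and blood progenitors, read 10.00, 9.48 and 9.72 in SKN and 4.09, 3.82 and 3.81 in Fibroblast, and the nearest arrays of the groups were 5.40 units apart. The desmosomal plaque protein PPL read 9.64, 10.24 and 9.68 in SKN and 4.69, 4.74 and 4.49 in Fibroblast, with a gap of 4.90. LSP1, an F-actin-binding protein best known from leukocytes, read 10.24, 9.91 and 9.85 in SKN and 5.33, 5.08 and 4.90 in Fibroblast, with a gap of 4.52. In all 3 genes the arrays of a group lay within 1 unit of each other. ABI3BP, CXCL12, F2RL2, TGFBR3, SELENOP, TMEFF2 and AVPR1A complete the 10 genes with the widest gaps among those that rose, with gaps of 5.79, 5.46, 5.11, 4.48, 4.23, 4.20 and 4.18. Among the genes that fell, the Wnt modulator SFRP2 had the widest gap, 5.53, and read 3.61, 5.54 and 4.39 in SKN and 11.68, 11.07 and 11.68 in Fibroblast. The retinol carrier RBP4 read 5.54, 6.21 and 5.42 in SKN and 10.14, 10.53 and 10.85 in Fibroblast, and the growth factor FGF5 read 4.39, 4.67 and 4.02 in SKN and 9.38, 9.22 and 8.66 in Fibroblast. The other gaps in the lower group were 4.26 for AK5, 3.89 for TFPI2, 3.76 for CCN3, 3.44 for NPR3, 3.39 for PGM5, 3.01 for PDE1A and 2.91 for NRG1. Outside these gaps but among the 10 largest differences, the secreted Wnt modulator DKK2 read 7.19, 9.12 and 9.50 in SKN and 3.03, 3.54 and 3.93 in Fibroblast (5.10 ± 0.73 SE, adjusted p 0.00916). The hyaluronan receptor LYVE1, best known from lymphatic endothelium, read 3.36, 7.49 and 4.79 in SKN and 9.14, 9.91 and 9.98 in Fibroblast (-4.47 ± 0.94 SE, adjusted p 0.0427), and its SKN arrays spread over more than 4 units. DKK2, CD34, PPL, LSP1, ABI3BP, CXCL12, F2RL2, TGFBR3, SELENOP, TMEFF2, AVPR1A, SFRP2, RBP4, FGF5, AK5, TFPI2, CCN3, NPR3 and NRG1 kept their calls in all 9 removals of 1 array. LYVE1 lost its call without any array but SKN 2 (adjusted p up to 0.135) and PGM5 without Fibroblast 2 or 3 or SKN 3 (adjusted p up to 0.078). PDE1A lost its call without Fibroblast 1, 2 or 3 or SKN 1 or 2 (adjusted p up to 0.0764).

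Beyond the 10 largest differences in each direction, the next 15 genes that rose included ligands that act on other cells. HGF, the ligand of the MET receptor, read 8.60, 7.32 and 6.82 in SKN and 3.55, 2.30 and 2.73 in Fibroblast (4.72 ± 0.46 SE, adjusted p 0.00156). IL7, a cytokine that keeps lymphocytes alive, read 7.66, 6.79 and 6.13 in SKN and 2.70, 2.26 and 2.84 in Fibroblast (4.26 ± 0.36, adjusted p 7.35e-04). ESM1, a secreted proteoglycan first known from endothelium, read 6.06, 9.73 and 8.39 in SKN and 3.85, 3.11 and 3.49 in Fibroblast (4.57 ± 0.76, adjusted p 0.0163). The HGF and IL7 arrays of SKN lay within 2 units of each other, while ESM1 spread over more than 3. PAMR1, a secreted protein with a trypsin-like domain, read 7.53, 7.66 and 7.33 in SKN and 3.17, 3.66 and 3.35 in Fibroblast (4.11 ± 0.18, adjusted p 4.65e-05). TNMD, a membrane glycoprotein of tendon and ligament, read 7.67, 8.19 and 8.93 in SKN and 2.53, 4.31 and 3.55 in Fibroblast (4.80 ± 0.44, adjusted p 0.00126). CD55, which shields the cell surface from complement, read 10.16, 9.60 and 9.45 in SKN and 7.07, 3.51 and 3.86 in Fibroblast (4.92 ± 0.85, adjusted p 0.0191), and Fibroblast 1 lay between the other fibroblast arrays and SKN. HGF, IL7, PAMR1 and TNMD kept their calls in all 9 removals of 1 array. ESM1 lost its call without Fibroblast 2 or 3 or SKN 3 (adjusted p up to 0.0649) and CD55 without Fibroblast 2 or 3 or SKN 1, 2 or 3 (adjusted p up to 0.0765).

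ADCYAP1R1, EDNRA and RGS17 were in the same range of genes that rose. ADCYAP1R1, the receptor of the neuropeptide PACAP that couples to adenylyl cyclase, read 9.20, 8.73 and 8.31 in SKN and 3.78, 3.87 and 4.14 in Fibroblast (4.82 ± 0.22 SE, adjusted p 5.46e-05). EDNRA, a receptor of endothelin, read 10.09, 9.0 and 9.08 in SKN and 4.92, 5.59 and 5.15 in Fibroblast (4.17 ± 0.65, adjusted p 0.013). RGS17, which speeds the turning off of G proteins of the inhibitory family, read 8.41, 8.69 and 7.88 in SKN and 2.83, 4.09 and 2.89 in Fibroblast (5.06 ± 0.36, adjusted p 3.87e-04). All 3 genes had every SKN array more than 3 units above every fibroblast array. Of the 18 measured RGS genes RGS17 was the only one called (5.56%, near the 4.55% of all genes), and the list's median difference was -0.16. RGS2 had a difference of -1.69 ± 0.38 (adjusted p 0.0526), and its arrays read 4.07, 5.24 and 3.73 in SKN and 6.15, 6.04 and 5.92 in Fibroblast. ADCYAP1R1 and RGS17 kept their calls in all 9 removals of 1 array. EDNRA lost its call without Fibroblast 3 or SKN 1 (adjusted p up to 0.0563).

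CRABP2, SLC16A7, ASPA and DNM1 were also in this range. CRABP2, which carries retinoic acid to the nucleus, read 9.42, 9.71 and 9.51 in SKN and 5.87, 4.61 and 4.31 in Fibroblast (4.62 ± 0.35 SE, adjusted p 4.62e-04). SLC16A7, a carrier of pyruvate and lactate, read 7.75, 7.77 and 8.26 in SKN and 3.72, 3.10 and 3.89 in Fibroblast (4.36 ± 0.25, adjusted p 1.40e-04). ASPA, the enzyme that splits N-acetylaspartate, read 9.91, 11 and 10.35 in SKN and 7.11, 3.95 and 7.38 in Fibroblast (4.27 ± 0.82, adjusted p 0.0285). On the fibroblast arrays ASPA spread over more than 3 units, and CRABP2 and SLC16A7 over less than 2. DNM1, the dynamin that pinches off endocytic vesicles in neurons, read 9.76, 9.14 and 8.67 in SKN and 5.08, 5.10 and 4.77 in Fibroblast (4.20 ± 0.28, adjusted p 2.28e-04). The Brain arrays of DNM1 read 4.14, 4.77 and 4.33, near the fibroblast values. CRABP2, SLC16A7 and DNM1 kept their calls in all 9 removals of 1 array. ASPA lost its call without SKN 1, 2 or 3 (adjusted p up to 0.0868).

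**Figure D2:**
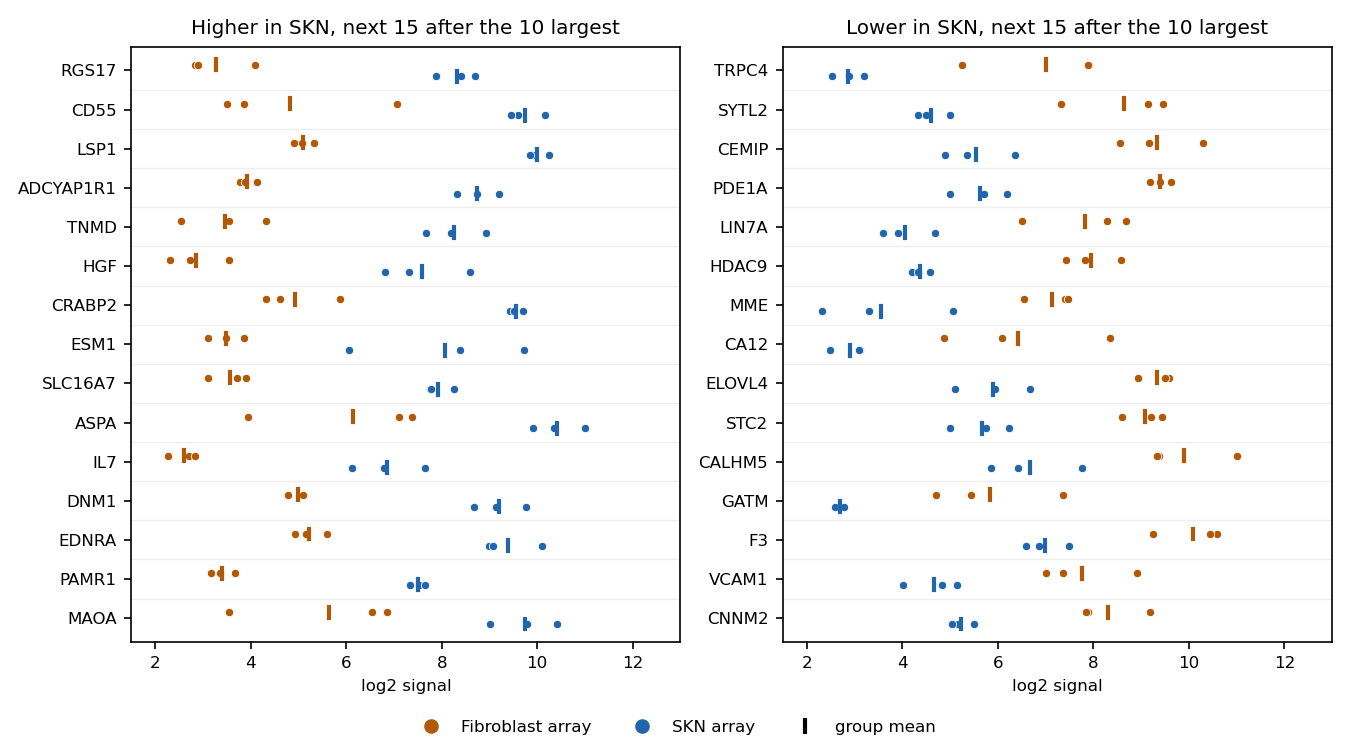
Signal on each of the 6 arrays (horizontal axis, log2 signal) for the genes ranked 11 to 25 by the size of the difference, higher in SKN on the left and lower on the right. Points are single arrays and bars are group means. No gene has overlapping groups, and the fibroblast points of CD55, ASPA, MAOA and CA12 and the SKN points of ESM1 spread over more than 3 units.

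Among the 15 genes at the same ranks that fell, several modify the cell surface or the fluid around it. CEMIP, which binds hyaluronan and promotes its breakdown, read 6.37, 4.89 and 5.36 in SKN and 9.17, 8.55 and 10.29 in Fibroblast (-3.80 ± 0.47 SE, adjusted p 0.00499). MME, the peptidase neprilysin, read 2.32, 5.06 and 3.30 in SKN and 7.41, 6.55 and 7.46 in Fibroblast (-3.58 ± 0.64, adjusted p 0.0218). F3, tissue factor, which starts coagulation, read 6.60, 6.86 and 7.50 in SKN and 10.60, 9.25 and 10.44 in Fibroblast (-3.11 ± 0.37, adjusted p 0.00429). In these 3 genes every fibroblast array lay more than 1 unit above every SKN array. STC2, a secreted stanniocalcin, read 4.99, 5.76 and 6.24 in SKN and 9.20, 8.61 and 9.43 in Fibroblast (-3.42 ± 0.32, adjusted p 0.00126). VCAM1, an adhesion receptor for leukocytes, read 4.83, 5.15 and 4.01 in SKN and 8.92, 7.36 and 7.0 in Fibroblast (-3.09 ± 0.49, adjusted p 0.0134). Each of these genes was thus seen on the fibroblast arrays at signals of 6 or more. CEMIP, F3, STC2 and VCAM1 kept their calls in all 9 removals of 1 array. MME lost its call without Fibroblast 1 or 3 or SKN 1 or 3 (adjusted p up to 0.0869).

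HDAC9, LIN7A, SYTL2, CALHM5 and CNNM2 were in the same range of genes that fell. HDAC9, a class IIa histone deacetylase, read 4.20, 4.57 and 4.33 in SKN and 7.83, 7.43 and 8.58 in Fibroblast (-3.59 ± 0.28 SE, adjusted p 5.26e-04). LIN7A, a scaffold protein of cell junctions and synapses, read 3.59, 4.69 and 3.91 in SKN and 6.50, 8.28 and 8.68 in Fibroblast (-3.76 ± 0.52, adjusted p 0.00823). SYTL2, a RAB27 effector in vesicle secretion, read 4.32, 4.50 and 4.99 in SKN and 7.33, 9.46 and 9.14 in Fibroblast (-4.04 ± 0.55, adjusted p 0.00734). HDAC9 varied least of the 3, with SDs of 0.19 in SKN and 0.58 in Fibroblast. CALHM5, of the calcium homeostasis modulator family, read 5.86, 6.42 and 7.76 in SKN and 9.38, 9.34 and 11.01 in Fibroblast (-3.23 ± 0.64, adjusted p 0.0322). CNNM2, a membrane protein of magnesium handling, read 5.51, 5.16 and 5.04 in SKN and 7.88, 7.84 and 9.19 in Fibroblast (-3.07 ± 0.34, adjusted p 0.00326). HDAC9, LIN7A, SYTL2 and CNNM2 kept their calls in all 9 removals of 1 array. CALHM5 lost its call without Fibroblast 1, 2 or 3, SKN 1 or 2 or Brain 2 (adjusted p up to 0.104).

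Genes known to be induced by glucocorticoids were the list with the largest share of calls. Members and lists were chosen with earlier results of these data known, so the shares describe the lists and test nothing. Glucocorticoids bind a receptor in the cytosol that then acts in the nucleus on genes such as FKBP5, which in turn dampens the receptor. Of 13 measured members 5 rose and 0 fell, 38.5% called higher beside 2.45% of all named genes. The array means over the 13 members were 7.45, 7.19 and 7.25 in SKN and 6.17, 5.87 and 6.08 in Fibroblast, and the median difference was 0.95 beside -0.04 over all genes. The co-chaperone FKBP5 read 9.22, 8.97 and 8.57 in SKN and 5.73, 6.68 and 5.39 in Fibroblast (2.98 ± 0.37 SE, adjusted p 0.00531). The kinase SGK1, which acts on ion transport, read 7.91, 6.86 and 7.47 in SKN and 5.69, 5.67 and 5.04 in Fibroblast (1.95 ± 0.35, adjusted p 0.0219). ERRFI1, a feedback inhibitor of the EGF receptor, read 9.40, 7.66 and 8.77 in SKN and 6.19, 5.66 and 5.24 in Fibroblast (2.91 ± 0.47, adjusted p 0.0148). In each of these 3 genes the lowest SKN array was more than 1 unit above the highest fibroblast array. The zinc finger repressor ZBTB16 read 5.06, 5.48 and 5.28 in SKN and 4.13, 4.40 and 3.77 in Fibroblast (1.17 ± 0.17, adjusted p 0.01). MAOA, which degrades serotonin and noradrenaline, read 9.01, 9.78 and 10.42 in SKN and 6.85, 3.55 and 6.54 in Fibroblast (4.09 ± 0.81, adjusted p 0.0323). The low fibroblast value of MAOA was that of Fibroblast 2. ERRFI1 is known to be induced by EGF as well. FKBP5 and ZBTB16 kept their calls in all 9 removals of 1 array. SGK1 lost its call without Fibroblast 2 or 3 or SKN 1 or 3 (adjusted p up to 0.0836) and ERRFI1 without Fibroblast 2 or 3 or SKN 3 (adjusted p up to 0.0648). MAOA lost its call without any array but Fibroblast 1 and Fibroblast 2 (adjusted p up to 0.105).

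The 8 other members were not called. GLUL, glutamine synthetase, read 8.06, 8.56 and 7.83 in SKN and 6.09, 6.87 and 7.25 in Fibroblast (adjusted p 0.0553), and the phosphatase DUSP1 read 10.83, 10.56 and 10.41 in SKN and 9.73, 9.95 and 9.76 in Fibroblast (adjusted p 0.0711). The clock gene PER1 read 7.41, 6.68 and 6.45 in SKN and 6.09, 5.85 and 5.73 in Fibroblast (adjusted p 0.0725). Their groups did not overlap, as was the case in 10 of the 13 members (9 with SKN above, 1 below), beside 26.7% of all genes. TSC22D3, a mediator of glucocorticoid effects in lymphocytes, had a difference of 0.33 ± 0.14, NFKBIA of 0.92 ± 0.35, KLF9 of -0.05 ± 0.27 and PDK4 of 0.18 ± 0.14. CRISPLD2 was the member below the fibroblasts on every SKN array, at 5.06, 5.23 and 5.77 in SKN and 6.38, 6.01 and 7.66 in Fibroblast (adjusted p 0.152). The number of members called higher was 2 without Fibroblast 3, 3 without Fibroblast 2, SKN 1 or SKN 3, 2 without variance moderation and 7 with the dimmer probe sets left out.

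The receptors and enzymes of corticosteroid action were measured apart from these targets. The glucocorticoid receptor NR3C1 read 8.76, 8.07 and 8.28 in SKN and 8.36, 8.33 and 8.43 in Fibroblast, a difference of -0.00 ± 0.17 (adjusted p 0.997). The mineralocorticoid receptor NR3C2, which also binds glucocorticoids, fell from 6.50, 6.32 and 6.29 in Fibroblast to 5.49, 5.14 and 5.26 in SKN (-1.07 ± 0.18 SE, adjusted p 0.0183). HSD11B1, the enzyme that turns inactive cortisone into cortisol, read 4.26, 5.92 and 5.88 in SKN and 3.47, 3.46 and 2.66 in Fibroblast (2.16 ± 0.43, adjusted p 0.0329). Its 3 SKN arrays lay above the fibroblast arrays. CYP1B1, an oxidase of oestrogens and other lipids, read 7.90, 8.42 and 7.97 in SKN and 10.17, 9.88 and 10.83 in Fibroblast (-2.20 ± 0.37, adjusted p 0.0174). HSD11B1 and CYP1B1 were the 2 calls among 24 genes of steroid metabolism, 8.33% called beside 4.55% of all genes. NR3C2 lost its call without Fibroblast 1, 2 or 3 or SKN 2 or 3 (adjusted p up to 0.0626) and HSD11B1 without any array but SKN 1 (adjusted p up to 0.115). CYP1B1 lost its call without Fibroblast 3 or SKN 1 or 3 (adjusted p up to 0.0663).

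Among 33 nuclear receptors 2 rose and 1 fell, 9.09% called beside 4.55% of all genes. RORB, an orphan receptor of neural and sensory tissues and of the clock, read 4.99, 6.20 and 5.99 in SKN and 4.03, 3.75 and 4.17 in Fibroblast (1.74 ± 0.30 SE, adjusted p 0.0191). NR2F6, an orphan repressor, differed by 0.61 ± 0.13 (adjusted p 0.0464), and NR3C2 was the gene that fell. Members not called included NR2F2, a regulator of mesenchymal fate, at 1.64 ± 0.44 (adjusted p 0.0957), and the immediate early receptor NR4A2 at 1.47 ± 0.39 (adjusted p 0.0914). RORB lost its call without Fibroblast 1, 2 or 3 or SKN 2 or 3 (adjusted p up to 0.0702) and NR2F6 without any of the 9 arrays (adjusted p up to 0.137). NR3C2 lost its call without Fibroblast 1, 2 or 3 or SKN 2 or 3 (adjusted p up to 0.0626).

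Genes of the circadian clock were called in both directions. The clock is a loop in which CLOCK or its homologue NPAS2 pairs with ARNTL (also named BMAL1) to drive the PER and CRY repressors, while NR1D1 and the ROR receptors oppose each other at the ARNTL gene. Of 17 measured members 3 rose and 2 fell, 29.4% called beside 4.55% of all genes, all 5 within the core loop. CLOCK read 8.20, 8.48 and 8.81 in SKN and 10.36, 9.88 and 10.26 in Fibroblast (-1.67 ± 0.18 SE, adjusted p 0.00288), and its homologue NPAS2 read 6.78, 6.76 and 6.05 in SKN and 4.78, 5.47 and 4.81 in Fibroblast (1.51 ± 0.25, adjusted p 0.0152). The pair thus moved in opposite directions, each with no overlap between groups. ARNTL read 6.15, 6.36 and 6.26 in SKN and 5.62, 5.53 and 5.64 in Fibroblast (0.66 ± 0.11, adjusted p 0.0203). The repressor NR1D1 read 6.20, 6.40 and 6.29 in SKN and 7.13, 7.18 and 7.19 in Fibroblast (-0.86 ± 0.11, adjusted p 0.00625). ARNTL and NR1D1 differed by less than 1 unit, with SDs of 0.11 and 0.10 in SKN and 0.06 and 0.03 in Fibroblast. RORB, called higher, belongs to this list as well. Of the repressors, PER1 had a difference of 0.95 ± 0.24 (adjusted p 0.0725), PER2 of -0.14 ± 0.15, PER3 of 0.21 ± 0.11, CRY1 of -0.02 ± 0.14 and CRY2 of -0.41 ± 0.20. The labels give no time of harvest, so the phase of the clock was not compared. CLOCK and NR1D1 kept their calls in all 9 removals of 1 array. NPAS2 lost its call without Fibroblast 3 or SKN 1 or 2 (adjusted p up to 0.0659) and ARNTL without Fibroblast 1, 2 or 3 or SKN 2 or 3 (adjusted p up to 0.067). RORB lost its call without Fibroblast 1, 2 or 3 or SKN 2 or 3 (adjusted p up to 0.0702).

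**Figure D3:**
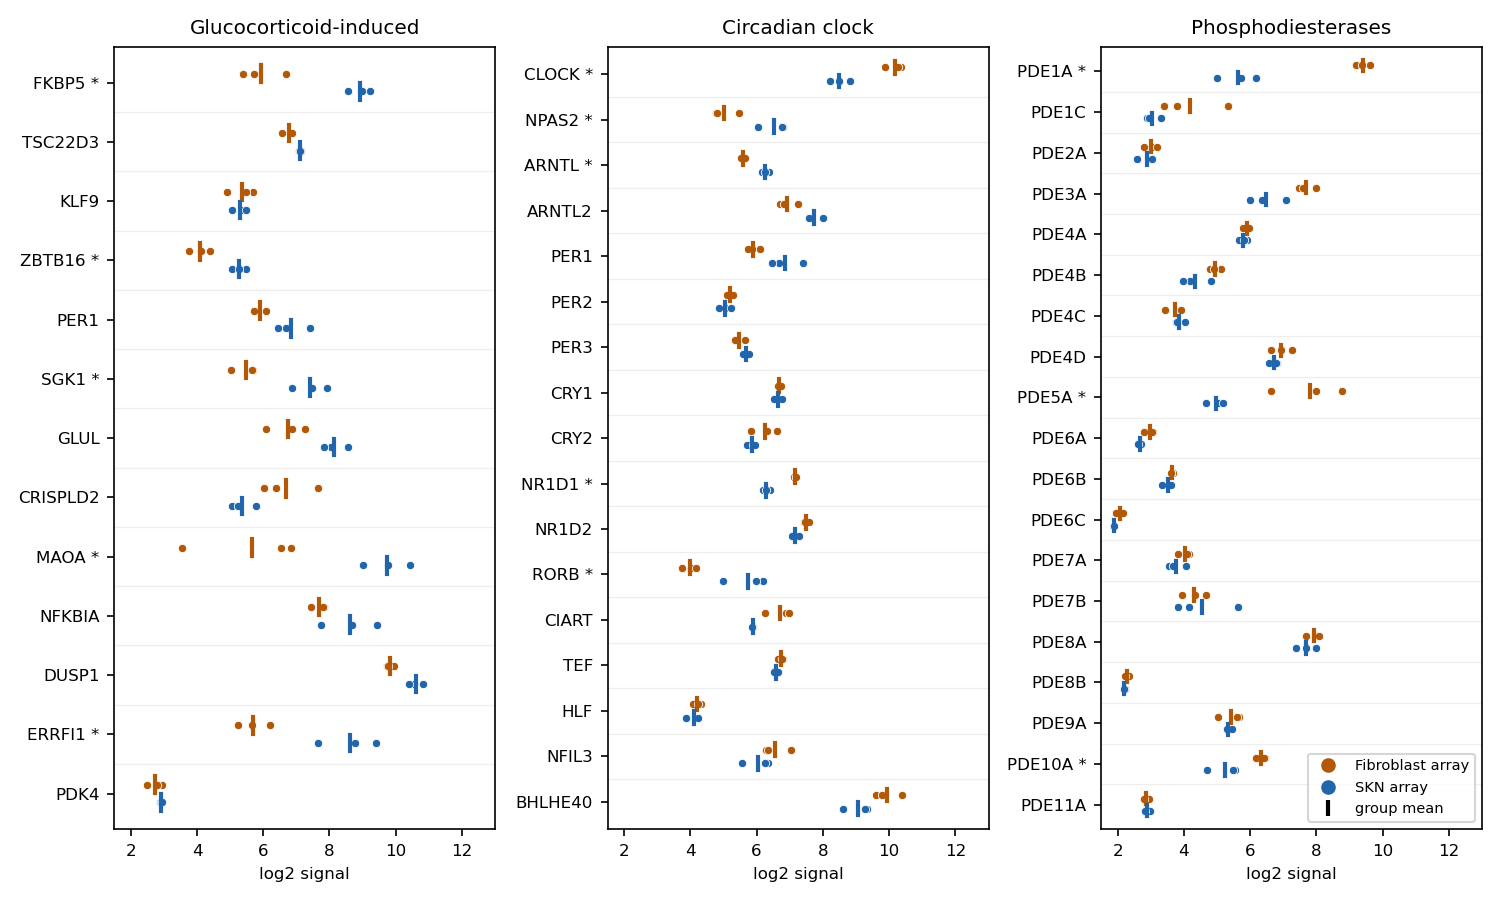
Signal on each of the 6 arrays (horizontal axis, log2 signal) for all measured members of the glucocorticoid-induced list (13 genes), the clock list (17) and the phosphodiesterases (19). Points are arrays, bars are group means and an asterisk marks a called gene: 5 glucocorticoid-induced genes higher in SKN, 3 clock genes higher and 2 lower, and 3 phosphodiesterases lower.

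The genes of cyclic nucleotide turnover were the list with the largest share called lower. Like the others, this list was chosen with earlier results of these data known. Cyclic AMP and cyclic GMP are made by cyclases, act through kinases and are removed by phosphodiesterases. Of 40 measured genes of this turnover 0 rose and 5 fell, 12.5% called lower beside 2.1% of all genes. Its median difference was -0.21, and 13 members lay below the fibroblasts on every SKN array against 1 above, beside 15% and 11.7% of all genes. PDE1A, a phosphodiesterase switched on by calcium and calmodulin, read 5.72, 5.0 and 6.19 in SKN and 9.62, 9.19 and 9.39 in Fibroblast (-3.76 ± 0.66 SE, adjusted p 0.0207). PDE5A, which removes cyclic GMP, read 4.67, 5.05 and 5.17 in SKN and 8.0, 6.64 and 8.78 in Fibroblast (-2.84 ± 0.51, adjusted p 0.0217). PDE10A, which takes both nucleotides, read 5.53, 4.70 and 5.47 in SKN and 6.17, 6.44 and 6.42 in Fibroblast (-1.11 ± 0.24, adjusted p 0.0482). These were the 3 calls among 19 phosphodiesterases (15.8% called lower, beside 2.1% of all genes). PDE5A spread over more than 2 units on the fibroblast arrays. ADCY3, the adenylyl cyclase of olfactory signalling, read 5.11, 4.61 and 5.09 in SKN and 5.98, 6.39 and 6.87 in Fibroblast (-1.48 ± 0.29, adjusted p 0.0322). PRKAR2B, a regulatory subunit of protein kinase A, read 5.22, 4.38 and 4.81 in SKN and 6.69, 7.49 and 7.03 in Fibroblast (-2.27 ± 0.28, adjusted p 0.00514). Among members not called, the kinase A catalytic subunit PRKACB read 7.97, 8.02 and 8.25 in SKN and 9.19, 8.75 and 9.12 in Fibroblast (adjusted p 0.0671) and PDE3A read 7.08, 5.99 and 6.37 in SKN and 7.49, 7.59 and 7.99 in Fibroblast (adjusted p 0.0967). PRKAR2B kept its call in all 9 removals of 1 array. PDE1A lost its call without Fibroblast 1, 2 or 3 or SKN 1 or 2 (adjusted p up to 0.0764) and PDE5A without Fibroblast 1 or 3 or SKN 1, 2 or 3 (adjusted p up to 0.078). PDE10A lost its call without any of the 9 arrays (adjusted p up to 0.144) and ADCY3 without Fibroblast 2 or 3, SKN 1, 2 or 3 or Brain 3 (adjusted p up to 0.1). The number of members called lower was 1 without Fibroblast 3, SKN 1 or SKN 2, 2 without Fibroblast 2 or SKN 3, 3 without Fibroblast 1 or Brain 3 and 1 without variance moderation.

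Receptors for neurotransmitters were called in both directions. Of 92 measured members 3 rose and 5 fell, 8.7% called beside 4.55% of all genes, and the array means over the list lay between 3.88 and 4.05, so that most members read low on every array. All 3 that rose are subunits of ion channels. The GABA receptor subunit GABRE read 8.50, 7.74 and 8.16 in SKN and 3.93, 4.36 and 3.92 in Fibroblast (4.07 ± 0.20 SE, adjusted p 6.86e-05), GABRA3 read 5.75, 5.49 and 4.40 in SKN and 2.83, 3.57 and 3.12 in Fibroblast (adjusted p 0.0227) and the AMPA receptor subunit GRIA1 read 6.20, 5.29 and 4.24 in SKN and 3.25, 3.59 and 3.28 in Fibroblast (adjusted p 0.0485). GABRE was the member with the largest difference. Among those that fell, HTR1D, a serotonin receptor coupled to inhibitory G proteins, read 3.07, 3.23 and 4.65 in SKN and 6.53, 6.15 and 6.89 in Fibroblast (-2.88 ± 0.40, adjusted p 0.00865). The muscarinic receptor CHRM2 read 4.16, 4.68 and 4.18 in SKN and 6.03, 6.92 and 6.22 in Fibroblast (-2.05 ± 0.26, adjusted p 0.00576). The glycine receptor subunit GLRB differed by -1.81 ± 0.34, the adrenergic receptor ADRA1B by -0.93 ± 0.15 and the histamine receptor HRH2 by -0.86 ± 0.13. GABBR2, a subunit of the metabotropic GABA receptor, was not called at 2.26 ± 0.51 (adjusted p 0.0536), with arrays at 7.24, 5.19 and 5.93 in SKN and 3.65, 4.12 and 3.82 in Fibroblast. Among the 42 G protein-coupled members 0 rose and 4 fell (9.52% called), and among the 50 ionotropic members 3 rose and 1 fell (8% called). GABRE, HTR1D, CHRM2 and HRH2 kept their calls in all 9 removals of 1 array. GABRA3 lost its call without Fibroblast 1 or 3 or SKN 1 or 2 (adjusted p up to 0.0849) and GRIA1 without any array but SKN 3 (adjusted p up to 0.144). GLRB lost its call without Fibroblast 1 or 3 or SKN 3 (adjusted p up to 0.0932) and ADRA1B without Fibroblast 3 or SKN 3 (adjusted p up to 0.0601).

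In the prostaglandin and leukotriene pathway 2 of 27 measured genes rose, both of them receptors, and 0 fell (7.41% called higher, beside 2.45% of all genes). Prostaglandins are made from arachidonic acid by cyclooxygenases and bind G protein-coupled receptors. The list holds 9 measured receptors. The prostaglandin D2 receptor PTGDR read 8.10, 7.87 and 7.98 in SKN and 5.06, 4.95 and 5.73 in Fibroblast (2.74 ± 0.25 SE, adjusted p 0.00121), and the prostaglandin E2 receptor PTGER4 read 5.32, 4.60 and 4.60 in SKN and 3.56, 3.70 and 3.70 in Fibroblast (1.18 ± 0.20, adjusted p 0.0186). Both receptors raise cyclic AMP. Among 16 enzymes 0 were called and 2 had an unadjusted p under 0.05. The list does not hold the lipoxygenase ALOX15, named here after its values were seen and outside the naming rules. ALOX15 was called higher (2.93 ± 0.59, adjusted p 0.0359), so the 0 covers the listed enzymes alone. The inducible cyclooxygenase PTGS2 read 8.28, 6.48 and 6.02 in SKN and 6.57, 5.83 and 6.0 in Fibroblast, with SKN 1 well above the other arrays, and the prostacyclin synthase PTGIS read 9.72, 10.08 and 9.93 in SKN and 9.55, 10.07 and 9.59 in Fibroblast. PTGDR kept its call in all 9 removals of 1 array. PTGER4 lost its call without Fibroblast 1, 2 or 3 (adjusted p up to 0.0648).

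In purinergic signalling, by ATP and adenosine outside the cell, 0 of 32 members rose and 2 fell (6.25% called, near the 4.55% of all genes). ENTPD3, a surface enzyme that splits ATP, read 5.99, 4.85 and 6.11 in SKN and 8.89, 7.90 and 7.89 in Fibroblast (-2.57 ± 0.44 SE, adjusted p 0.0179), and PANX1, a channel that releases ATP, fell as well (-0.98 ± 0.22). NT5E, the surface enzyme that makes adenosine and a common marker of cultured stromal cells, was not called (adjusted p 0.183). It read 8.55, 6.71 and 4.48 in SKN and 3.25, 4.21 and 2.90 in Fibroblast, a difference of 3.13 ± 1.08 that varied widely between the SKN arrays. ENTPD3 lost its call without Fibroblast 3 (adjusted p up to 0.0518) and PANX1 without any array but Brain 2 and Brain 3 (adjusted p up to 0.137).

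Cytokine receptors were called in the interleukin 1 and 17 families and among the TNF receptors. IL1R1, the signalling receptor of interleukin 1, read 9.70, 8.79 and 8.31 in SKN and 4.69, 4.92 and 6.05 in Fibroblast (3.71 ± 0.42 SE, adjusted p 0.00319). IL17RD, a membrane protein that dampens FGF signalling, read 6.52, 7.07 and 6.78 in SKN and 4.52, 4.61 and 3.85 in Fibroblast (2.46 ± 0.24, adjusted p 0.00152). They were the 2 calls among 11 receptors of the interleukin 1 and 17 families (18.2%, beside 4.55% of all genes). The 34 type I and II cytokine receptors had 0 calls and 6 with an unadjusted p under 0.05, and of 22 TNF receptors 1 fell, the death receptor FAS, from 6.81, 7.56 and 8.26 in Fibroblast to 5.94, 6.06 and 6.08 in SKN. Over all 67 cytokine receptors 4.48% were called, near the 4.55% of all genes. FAS was also the single call among 27 p53 targets and CDK inhibitors (3.7%, under the 4.55% of all genes). Among 34 receptors and signalling genes of metabolic hormones 1 fell and 0 rose (2.94% called, under the 4.55% of all genes). The leptin receptor LEPR fell (-2.33 ± 0.50, adjusted p 0.0467), with arrays at 3.22, 5.43 and 3.91 in SKN and 5.98, 7.0 and 6.58 in Fibroblast. IL1R1 and IL17RD kept their calls in all 9 removals of 1 array. FAS lost its call without any array but Fibroblast 1 and Fibroblast 3 (adjusted p up to 0.106) and LEPR without any array but SKN 2 (adjusted p up to 0.137).

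Iron handling genes rose in 3 of 21 measured members and fell in 0, 14.3% called higher beside 2.45% of all genes. STEAP1, of a family of metalloreductases, read 5.60, 6.97 and 5.82 in SKN and 3.65, 3.01 and 2.94 in Fibroblast (2.93 ± 0.37 SE, adjusted p 0.00556). CYBRD1, which reduces ferric iron at the cell surface, read 11.31, 11.66 and 11.76 in SKN and 10.34, 9.89 and 10.75 in Fibroblast (1.25 ± 0.27, adjusted p 0.0482). SLC40A1, ferroportin, the exporter of cellular iron, read 7.48, 5.32 and 5.62 in SKN and 3.27, 3.40 and 3.27 in Fibroblast (2.83 ± 0.49, adjusted p 0.0193). Reduction, the step before uptake, and export thus both had members that rose. STEAP2 was not called at 6.77, 8.40 and 7.22 in SKN and 6.33, 4.41 and 4.50 in Fibroblast (adjusted p 0.0631). The transferrin receptor TFRC had a difference of -0.46 ± 0.32 and the ferritin heavy chain FTH1 one of -0.19 ± 0.18. STEAP1 kept its call in all 9 removals of 1 array. CYBRD1 lost its call without any array but Brain 1 and Brain 3 (adjusted p up to 0.141) and SLC40A1 without Fibroblast 1, 2 or 3 (adjusted p up to 0.0741).

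Of 27 measured genes of glutathione and oxidative stress defence 3 rose and 0 fell (11.1% called higher, beside 2.45% of all genes). All 3 were among the 9 measured transferases that attach glutathione to lipids and toxins. The microsomal enzyme MGST1 read 5.41, 5.01 and 6.05 in SKN and 2.98, 3.64 and 4.0 in Fibroblast (1.95 ± 0.31 SE, adjusted p 0.0137). MGST3 differed by 0.90 ± 0.18 (adjusted p 0.0359) and the cytosolic GSTP1 by 0.64 ± 0.11 (adjusted p 0.0203). The 4 genes of glutathione synthesis and the 14 of oxidant removal had 0 calls, with 0 and 6 at an unadjusted p under 0.05. Of 19 aldehyde and alcohol dehydrogenases 1 rose, ALDH1L1, of folate metabolism (0.80 ± 0.17), 5.26% called and near the 4.55% of all genes. MGST1 kept its call in all 9 removals of 1 array. MGST3 lost its call without any array but Brain 2 (adjusted p up to 0.11) and GSTP1 without Fibroblast 2 or 3 or SKN 2 or 3 (adjusted p up to 0.0723). ALDH1L1 lost its call without any array but SKN 3 and Brain 1 (adjusted p up to 0.115).

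Genes that bind, activate and carry lipids were called in both directions. Of 40 genes of fatty acid uptake, oxidation and lipid droplets 3 rose and 0 fell (7.5% called higher, beside 2.45% of all genes). The carrier protein FABP3 read 11.85, 9.67 and 10.13 in SKN and 7.09, 7.77 and 7.0 in Fibroblast (3.26 ± 0.50 SE, adjusted p 0.012). ACSL5, which activates fatty acids with coenzyme A, read 6.08, 6.11 and 5.77 in SKN and 3.96, 2.81 and 3.65 in Fibroblast (2.52 ± 0.27, adjusted p 0.00248), and DGAT2, which makes triglyceride, read 4.91, 4.67 and 4.96 in SKN and 3.91, 3.69 and 3.85 in Fibroblast (1.02 ± 0.12, adjusted p 0.00373). The 13 genes of fatty acid oxidation had 0 calls and 3 with an unadjusted p under 0.05. ELOVL4, which lengthens very long fatty acids, fell from 8.94, 9.58 and 9.50 in Fibroblast to 5.11, 5.94 and 6.67 in SKN (-3.43 ± 0.39, adjusted p 0.00359). Among 36 ABC transporters 2 rose and 1 fell (8.33% called, beside 4.55% of all genes), all 3 in the A class of lipid carriers. ABCA6 read 7.69, 6.62 and 7.21 in SKN and 3.34, 3.19 and 3.71 in Fibroblast (3.76 ± 0.30, adjusted p 5.26e-04) and its relative ABCA9 read 8.33, 7.59 and 7.20 in SKN and 5.22, 5.20 and 4.94 in Fibroblast (2.59 ± 0.25, adjusted p 0.00165). ABCA8, of the same subfamily, was not called (0.77 ± 0.55). The cholesterol exporter ABCA1 read 5.32, 5.59 and 4.97 in SKN and 6.87, 6.26 and 7.08 in Fibroblast (-1.45 ± 0.25, adjusted p 0.0196). ABCC9, a subunit of potassium channels, was not called at 2.84 ± 0.63 (adjusted p 0.0508). ACSL5, DGAT2, ELOVL4, ABCA6 and ABCA9 kept their calls in all 9 removals of 1 array. FABP3 lost its call without Fibroblast 3 (adjusted p up to 0.056) and ABCA1 without Fibroblast 1 or 3 or SKN 1 or 3 (adjusted p up to 0.0715).

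Of 34 amino acid carriers 0 rose and 2 fell, 5.88% called lower beside 2.1% of all genes, and 11 lay below the fibroblasts on every SKN array against 1 above, beside 15% and 11.7% of all genes. SLC3A2, the heavy chain of the large neutral amino acid exchangers, read 8.94, 9.06 and 9.04 in SKN and 9.56, 10.17 and 9.99 in Fibroblast (-0.89 ± 0.19 SE, adjusted p 0.0406). Its partner SLC7A5 had a difference of -0.65 ± 0.15 (adjusted p 0.0599) and the glutamine carrier SLC1A5 one of -0.76 ± 0.17 (adjusted p 0.0529), neither of them called. The creatine carrier SLC6A8 fell from 7.87, 8.20 and 8.32 in Fibroblast to 7.21, 7.44 and 7.40 in SKN (-0.78 ± 0.14, adjusted p 0.0241). GATM, the first enzyme of creatine synthesis, read 2.58, 2.74 and 2.77 in SKN and 5.44, 7.36 and 4.70 in Fibroblast (-3.13 ± 0.57, adjusted p 0.0231). Carrier and enzyme were thus both lower. The 3 SKN arrays of GATM lay under 2.94, the lower quartile of all values, where agreement between arrays says little. Its fibroblast arrays had an SD of 1.37. SLC3A2 lost its call without any array but Fibroblast 1 and Brain 1 (adjusted p up to 0.13) and SLC6A8 without Fibroblast 2 or 3 or SKN 1, 2 or 3 (adjusted p up to 0.0865). GATM lost its call without SKN 1, 2 or 3 (adjusted p up to 0.079).

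Of 46 TRP, anoctamin, aquaporin and mechanosensitive channel genes 0 rose and 4 fell, 8.7% called lower beside 2.1% of all genes. TRPC4, a cation channel opened downstream of phospholipase C, read 2.52, 3.19 and 2.88 in SKN and 5.25, 7.91 and 7.89 in Fibroblast (-4.16 ± 0.72 SE, adjusted p 0.0193). Its relative TRPC1 differed by -0.74 ± 0.13, the calcium-activated channel TRPM4 by -0.87 ± 0.14 and the lipid scramblase ANO6 by -0.60 ± 0.13. The membrane carbonic anhydrase CA12 read 3.12, 2.48 and 3.10 in SKN and 4.87, 8.34 and 6.09 in Fibroblast (-3.53 ± 0.72, adjusted p 0.0377), and the fibroblast arrays spread over more than 3 units. SLC4A7, a carrier of bicarbonate into the cell, rose by 1.06 ± 0.20. In zinc and copper handling 1 of 34 genes rose, the zinc carrier SLC39A13 (0.71 ± 0.15), and 0 fell (2.94% called, under the 4.55% of all genes). TRPC4 lost its call without Fibroblast 2 or 3 or SKN 1 or 3 (adjusted p up to 0.0762) and TRPC1 without Fibroblast 2 or 3 or SKN 1, 2 or 3 (adjusted p up to 0.0647). TRPM4 lost its call without Fibroblast 3 or SKN 1 or 3 (adjusted p up to 0.0637) and ANO6 without any of the 9 arrays (adjusted p up to 0.133). CA12 lost its call without any array but Fibroblast 1 and Fibroblast 2 (adjusted p up to 0.104) and SLC4A7 without Fibroblast 1, 2 or 3, SKN 1 or Brain 2 (adjusted p up to 0.092). SLC39A13 lost its call without any array but SKN 2 and Brain 1 (adjusted p up to 0.116).

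The 8 called genes of highest signal that fell were PLS3, ACTN1, DSTN, WDR1, CSRP1, ITGAV, COL5A2 and ASPN, chosen by signal and not by function. PLS3, plastin 3, which bundles actin filaments, read 10.54, 10.94 and 10.79 in SKN and 11.70, 11.65 and 11.93 in Fibroblast (-1.0 ± 0.16 SE, adjusted p 0.0155). ACTN1, the actin crosslinker of adhesions, read 10.30, 10.68 and 10.84 in SKN and 11.50, 11.49 and 11.54 in Fibroblast (-0.90 ± 0.19, adjusted p 0.0423). DSTN, which takes filaments apart (-0.89 ± 0.16), its cofactor WDR1 (-0.54 ± 0.11) and the actin-associated LIM protein CSRP1 (-0.90 ± 0.16) fell as well. The differences of these 5 genes were small beside the leading genes, at 1 unit or less. The integrin chain ITGAV (-1.18 ± 0.19), the collagen COL5A2 (-0.83 ± 0.17) and ASPN, a small matrix proteoglycan (-1.24 ± 0.23), were the others of these 8 genes. In the opposite direction GSN, gelsolin, which severs and caps filaments, read 11.95, 11.99 and 12.23 in SKN and 9.79, 8.76 and 9.26 in Fibroblast (2.79 ± 0.24, adjusted p 9.62e-04). GSN kept its call in all 9 removals of 1 array. PLS3 lost its call without Fibroblast 3 or SKN 1 or 3 (adjusted p up to 0.0643) and ACTN1 without any array but Brain 1 (adjusted p up to 0.127). DSTN lost its call without Fibroblast 1, 2 or 3 or SKN 1 or 3 (adjusted p up to 0.071) and WDR1 without any array but Brain 1 (adjusted p up to 0.127). CSRP1 lost its call without Fibroblast 2 or 3 or SKN 1 or 2 (adjusted p up to 0.0824) and ITGAV without Fibroblast 2 or 3 or SKN 3 (adjusted p up to 0.0606). COL5A2 lost its call without any array but Brain 1 and Brain 3 (adjusted p up to 0.132) and ASPN without Fibroblast 1, 2 or 3 or SKN 1 or 3 (adjusted p up to 0.091).

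Of the 8 called genes of highest signal that rose, CYBRD1 and GSN are given above. Of the others, the metalloproteinase inhibitor TIMP1 read 12.63, 12.60 and 12.72 in SKN and 11.19, 10.97 and 11.69 in Fibroblast and the amyloid precursor relative APLP2 read 10.99, 10.93 and 11.18 in SKN and 9.73, 9.76 and 9.85 in Fibroblast. GGTA1, which makes the alpha-gal epitope, rose by 0.73 ± 0.13, the secretory pathway isomerase PPIB by 0.88 ± 0.14 and the reductase CYB5R3 by 0.77 ± 0.13. S100A4, a calcium-binding protein of motile cells, read 11.22, 11.18 and 11.24 in SKN and 9.21, 9.23 and 9.53 in Fibroblast (1.89 ± 0.32 SE, adjusted p 0.018). S100A10, the partner of annexin A2, read 11.20, 10.91 and 10.97 in SKN and 9.39, 9.56 and 9.06 in Fibroblast (1.69 ± 0.16, adjusted p 0.00126). Of 17 measured S100 genes these 2 rose and 0 fell (11.8% called higher, beside 2.45% of all genes). The 11 annexins had 0 calls and 4 with an unadjusted p under 0.05, beside 3197 of all 15947 genes. ANXA2 itself had a difference of -0.15 ± 0.13. GSN, TIMP1, APLP2 and S100A10 kept their calls in all 9 removals of 1 array. CYBRD1 lost its call without any array but Brain 1 and Brain 3 (adjusted p up to 0.141) and GGTA1 without Fibroblast 1, 2 or 3 or SKN 1 or 2 (adjusted p up to 0.0655). PPIB lost its call without SKN 3 (adjusted p up to 0.0509) and CYB5R3 without Fibroblast 1 or 3 or SKN 1, 2 or 3 (adjusted p up to 0.0689). S100A4 lost its call without Fibroblast 1, 2 or 3 or SKN 1, 2 or 3 (adjusted p up to 0.0655).

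Tetraspanins group integrins and receptors in the membrane, and of 27 measured members 3 rose and 1 fell (14.8% called, beside 4.55% of all genes). TSPAN5 read 9.41, 9.49 and 8.66 in SKN and 7.39, 6.47 and 6.13 in Fibroblast (2.52 ± 0.33 SE, adjusted p 0.00631), CD82 read 7.21, 6.54 and 7.16 in SKN and 5.18, 5.78 and 5.58 in Fibroblast (adjusted p 0.0137) and CD9 read 9.55, 9.35 and 9.30 in SKN and 8.28, 8.61 and 8.67 in Fibroblast (adjusted p 0.013). TSPAN18 fell (-1.84 ± 0.36). Among 45 protocadherins, teneurins and adhesion G protein-coupled receptors 2 rose, PCDH17 (1.94 ± 0.27) and the latrophilin ADGRL2 (2.09 ± 0.39), and 0 fell, a share of 4.44% that is near the background. The claudin CLDN15 rose (2.08 ± 0.42) as the single call among 36 genes of tight and gap junctions (2.78%, under the 4.55% of all genes). CLDN1, a claudin of epidermis, was not called at 3.34 ± 0.84 (adjusted p 0.0762), with arrays at 8.87, 9.02 and 9.21 in SKN and 7.31, 4.71 and 5.04 in Fibroblast. Of 20 receptor tyrosine phosphatases 0 rose and 1 fell (5% called, near the 4.55% of all genes), PTPRB, best known from endothelium, from 7.31, 6.13 and 7.16 in Fibroblast to 2.88, 4.59 and 4.18 in SKN. The endothelial receptor KDR fell as well, while the other 5 measured endothelial markers were not called. Of these 2 lay above the fibroblasts on every SKN array, beside 11.7% of all genes. TSPAN5 and PCDH17 kept their calls in all 9 removals of 1 array. CD82 lost its call without Fibroblast 3 or SKN 1 or 3 (adjusted p up to 0.0548) and CD9 without SKN 1 (adjusted p up to 0.0507). TSPAN18 lost its call without any array but Brain 1 and Brain 3 (adjusted p up to 0.108) and ADGRL2 without Fibroblast 2 or 3 or SKN 1, 2 or 3 (adjusted p up to 0.0931). CLDN15 lost its call without any array but SKN 2 (adjusted p up to 0.125) and PTPRB without Fibroblast 3 (adjusted p up to 0.0526). KDR lost its call without Fibroblast 1 or 3, SKN 1, 2 or 3 or Brain 3 (adjusted p up to 0.0934).

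Glycosylation enzymes were called among those that add sialic acid and O-linked sugars. Of 20 sialyltransferases 0 rose and 2 fell (10% called lower, beside 2.1% of all genes), ST6GALNAC5, which makes gangliosides, and ST3GAL3. ST6GALNAC5 read 3.84, 4.26 and 3.60 in SKN and 6.14, 5.98 and 6.06 in Fibroblast (-2.16 ± 0.20 SE, adjusted p 0.00136), and ST3GAL3 differed by -1.03 ± 0.15 (adjusted p 0.00957). Of 19 transferases that start O-glycans 1 rose, GALNT5 (2.31 ± 0.45), and 0 fell (5.26% called, near the 4.55% of all genes). The 27 genes of heparan sulfate modification had 0 calls and 7 with an unadjusted p under 0.05, beside 3197 of all 15947 genes. In the Hedgehog pathway 2 of 25 members rose and 0 fell (8% called higher, beside 2.45% of all genes), the transcription factor GLI3 (7.38, 6.85 and 6.75 in SKN and 5.69, 5.24 and 5.01 in Fibroblast) and the secreted protein SCUBE2 (0.83 ± 0.15), which helps release the ligand. Of 22 serpins 1 fell (4.55%, as over all genes), the neuronal protease inhibitor SERPINI1, with arrays at 3.04, 3.64 and 3.59 in SKN and 4.96, 5.44 and 6.83 in Fibroblast. ST6GALNAC5 and ST3GAL3 kept their calls in all 9 removals of 1 array. GALNT5 lost its call without Fibroblast 1 or 3, SKN 1 or 2 or Brain 2 or 3 (adjusted p up to 0.116) and GLI3 without Fibroblast 3 (adjusted p up to 0.0538). SCUBE2 lost its call without Fibroblast 1, 2 or 3 or SKN 1 or 3 (adjusted p up to 0.0801) and SERPINI1 without Fibroblast 2 or SKN 1, 2 or 3 (adjusted p up to 0.08).

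The genes of the basic machinery measured here had no calls by limma. These were 47 cytosolic ribosomal proteins, 45 genes of oxidative phosphorylation and 51 lysosomal genes, with 5, 7 and 12 members at an unadjusted p under 0.05. Over all 15947 named genes 3197 had an unadjusted p under 0.05. Their median differences were 0.11, -0.03 and -0.07, beside -0.04 over all named genes. The 26 Toll-like and other innate sensors and the 23 KLF and SP factors had 0 calls too, with 3 and 5 members at an unadjusted p under 0.05. Among the KLF factors KLF4 had a difference of 1.39 ± 0.40 (adjusted p 0.112). Over the 35 lists 74 of 1161 measured genes were called (6.37%, beside 4.55% of all genes), and 9 lists had calls in both directions.

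**Figure D4:**
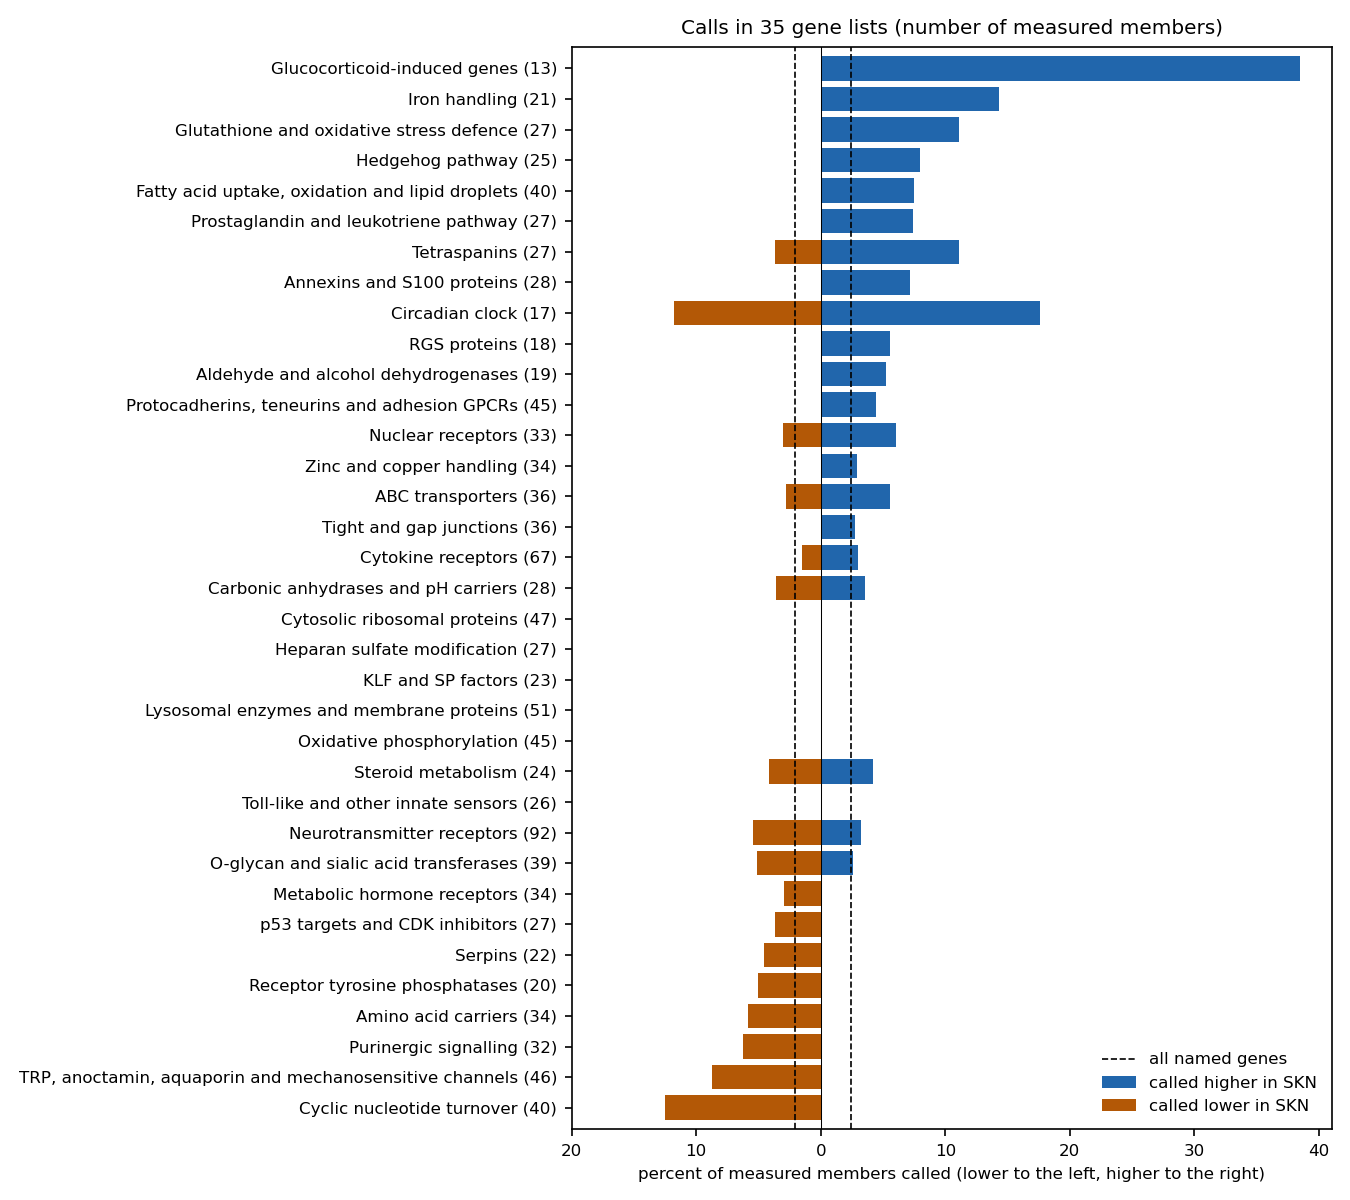
Percent of the measured members of 35 gene lists that were called lower in SKN (to the left, orange) or higher (to the right, blue), with the number of measured members in brackets. Dashed lines mark the shares over all named genes, 2.45% higher and 2.1% lower. Glucocorticoid-induced genes have the longest bar to the right (38.5%) and cyclic nucleotide turnover the longest to the left (12.5%). Lists and members were chosen with earlier results of these data known.

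The arrays did not carry the comparison equally. Of the 726 called genes 273 (37.6%) kept their call in all 9 removals of 1 array, 152 of them higher in SKN and 121 lower. Removal of Fibroblast 3 cost the most calls, 403 (55.5%), and removal of SKN 1 cost 356 (49%). Removal of Fibroblast 1 cost 268 (36.9%), removal of SKN 2 274 (37.7%) and removal of SKN 3 344 (47.4%), and without Fibroblast 2 341 calls (47%) were lost. Each Brain array left out cost between 93 (12.8%) and 162 (22.3%) calls, since it enters the spread alone. Fibroblast 1 was the fibroblast array nearest to SKN in 316 called genes (43.5%), Fibroblast 2 in 258 (35.5%) and Fibroblast 3 in 152 (20.9%). SKN 2 was the SKN array nearest to the fibroblasts in 301 (41.5%), SKN 3 in 268 (36.9%) and SKN 1 in 157 (21.6%). In both groups the array whose loss cost the most calls was thus the one least often nearest to the other group. Over all probe sets arrays of a group correlated at 0.978 to 0.985, and those of different groups at 0.955 to 0.973.

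**Figure D5:**
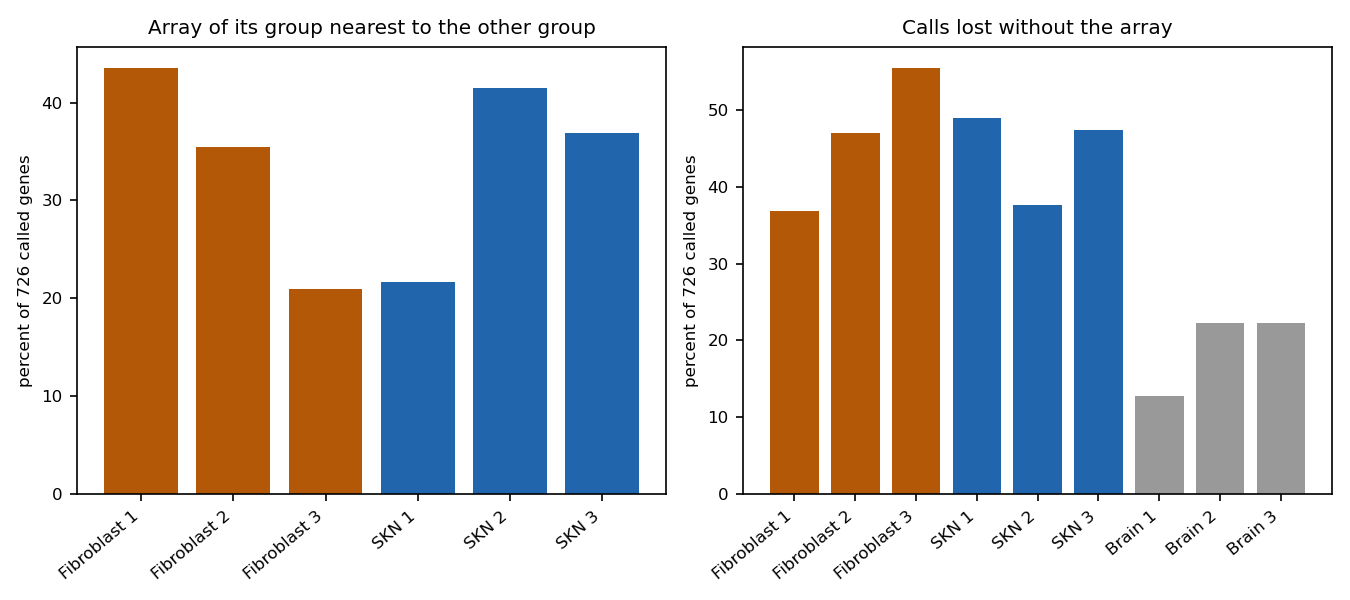
Left, percent of the 726 called genes in which each array was the one of its group nearest to the other group. Right, percent of the calls lost when each of the 9 arrays was left out of the fit, 55.5% for Fibroblast 3 and 12.8% for Brain 1.

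Large differences also occurred in genes that were not called, where the arrays of a group disagreed. KLHL32 read 7.11, 7.21 and 3.42 in SKN and 2.82, 3.08 and 3.02 in Fibroblast (2.94 ± 0.87 SE, adjusted p 0.121), with SKN 3 near the fibroblasts. SFRP4, a secreted Wnt modulator, read 5.94, 6.68 and 10.05 in SKN and 6.10, 3.87 and 3.34 in Fibroblast (3.12 ± 1.07, adjusted p 0.179), with SKN 3 far above the other arrays. MDGA2, a synaptic adhesion regulator, read 2.25, 3.46 and 3.65 in SKN and 4.25, 8.07 and 5.88 in Fibroblast (-2.94 ± 0.83, adjusted p 0.106), and FXYD6, of the sodium pump regulators, read 9.02, 6.48 and 8.44 in SKN and 6.99, 3.83 and 3.91 in Fibroblast (3.07 ± 0.91, adjusted p 0.121). In others SKN and Fibroblast did not overlap and the Brain arrays spread over more than 3 units. CNN1, calponin of smooth muscle and myofibroblasts, read 7.72, 9.85 and 9.25 in SKN and 11.83, 11.98 and 11.98 in Fibroblast (-2.99 ± 0.88, adjusted p 0.121), and 4.01, 4.69 and 7.62 in Brain. NIPAL2 read 4.56, 6.25 and 5.12 in SKN and 7.66, 8.41 and 9.02 in Fibroblast (-3.05 ± 1.21, adjusted p 0.248), and 7.68, 2.49 and 3.14 in Brain. The collagen COL14A1 read 9.57, 7.85 and 8.21 in SKN and 5.35, 4.56 and 4.33 in Fibroblast (3.80 ± 0.85, adjusted p 0.0537), and 6.78, 3.67 and 3.46 in Brain. Fitted on the 6 arrays alone, CNN1, NIPAL2 and COL14A1 had adjusted p of 0.0461, 0.0431 and 0.0227, and the collagen COL11A1, at 5.20, 7.74 and 7.45 in SKN and 9.76, 10.40 and 9.93 in Fibroblast, had 0.0741 beside 0.0556 in the fit of 9. In 36.6% of named genes the group with the largest SD was Brain. The 6-array fit called 496 genes, 424 of which were among the 726 and 72 were not, and the gap between nearest arrays exceeded 1 in 36 genes that the fit of 9 arrays did not call.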

How the data were processed

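RNA of 9 dog cell cultures was measured on Affymetrix arrays, 3 each of SKN, Fibroblast and Brain. The deposited table holds 1 log2 value for each of 32205 probe sets and array, from 0.561 to 13.47, with array medians between 4.715 and 4.786. The submitters' processing notes name RMA, MAS5 and Partek without a role or version, and the log base was inferred from the range of the values. Background correction and normalization could not be redone from scanner data, slide and scan batches are not given in the sources used here, and the number of arrays limits the precision.

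The platform's gene table gave 16545 probe sets 1 symbol, 370 several and 15290 none. The named ones cover 15947 genes, 516 of them with several probe sets, of which the one with the highest mean over the 9 arrays was kept. Of the 16545 probe sets with 1 symbol 15820 matched the reference gene table (UU_Cfam_GSD_1.0, names only).

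limma 3.58.1 in R 4.3.3 (lmFit and eBayes, 9 arrays, 1 coefficient for each group, 6 residual and 2.41 prior degrees of freedom) gave two-sided p-values, with Benjamini-Hochberg adjustment across the whole table and calls at an adjusted p under 0.05. The procedure was tested on simulated data. Genes were named by rule: among called genes the 25 largest differences in each direction, the 10 widest gaps and the 8 highest signals, called members of the lists, the 10 largest differences not called and the cell type markers, with placeholder symbols left out. Members and lists were chosen with earlier results of these data known. Alternatives were the moderation, a variance trend, the 6 arrays alone, a replicate block, array weights, quantile normalization, a filter on dim probe sets, the choice of probe set, a fold threshold and removal of arrays. Promoter sequences were not used here, and 1 further gene list is not reported here.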

Additional observations from a re-analysis of the deposited data

How the results depend on the processing

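The counts reported were 1076 probe sets, 391 genes higher, 335 lower, 5 glucocorticoid-induced genes higher and 5 genes of cyclic nucleotide turnover lower. No named called difference changed its direction under the alternatives run, while the balance of genes higher and lower turned from 391 and 335 to 371 and 377 after quantile normalization and to 218 and 232 without Fibroblast 2, and the cause of the changes below was not tested. Without variance moderation the counts were 488, 175, 151, 2 and 1, and with Fibroblast 1 and Brain 3 both left out they were 516, 171, 170, 2 and 2. The 6 arrays alone called 256 genes higher, the mean of all probe sets of a gene (adjusted over genes alone) gave 520 lower, and 682 called probe sets differed at least 2-fold. With 1 array left out the counts ranged from 513 to 1095, 184 to 399, 156 to 351, 2 to 5 and 1 to 5. A variance trend, array weights, quantile normalization and a filter on dim probe sets kept all 5 counts within 1.5 times, from 1115, 1314, 1117 and 1271 probe sets respectively.

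Same-numbered SKN and Fibroblast arrays had deviations correlated at 0.145, 0.045 and 0.048. Of the differently numbered ones only Fibroblast 3 and SKN 2 correlated above zero (0.096), and the others lay between -0.144 and -0.008. The labels do not say that a number marks a shared dog or day, so the numbers were not taken as pairs in the main fit. With the replicate block 835 probe sets, 303 genes higher, 259 lower, 6 glucocorticoid-induced genes and 3 of cyclic nucleotide turnover were called, and 27 of the 135 named called genes lost their call.

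Of those 135 genes 72 lost their call without moderation, 42 on the 6 arrays, 58 with Fibroblast 1 and Brain 3 out, 4 with array weights, 1 after quantile normalization and 0 with the trend. With 1 array left out between 13 and 65 did. Of the 78 named genes not called, at most 6 became called under any 1 alternative. Signals near the lower end of the table, without detection calls, limit the differences of dim genes.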

Other observations

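Where a gene had several probe sets, they could be set beside each other. Of 516 such genes 39 had at least 1 called probe set. In 18 of these the probe set used and another were called the same way, while 0 had calls in opposite directions. In 15 the probe set used was called and no other was. The repressor ZBTB16 differed by 1.17 ± 0.17 SE on the probe set used and by 2.06 ± 0.22 on the other. The membrane protein TMEFF2 differed by 5.41 ± 0.45 and 3.95 ± 0.50, GLI3 by 1.68 ± 0.26 and 1.70 ± 0.37, and the bicarbonate carrier SLC4A7 by 1.06 ± 0.20 and 1.22 ± 0.25. Among genes that fell, CNNM2 differed by -3.07 ± 0.34 and -3.28 ± 0.33, and ST6GALNAC5 by -2.16 ± 0.20 and -0.58 ± 0.12. In NR3C2, PDE10A and GRIA1 the other probe set was not called. It differed by -0.62 ± 0.15 (limma adjusted p 0.0687), -0.80 ± 0.27 (0.171) and 0.75 ± 0.26 (0.176). Probe sets of a gene share the RNA and are not replicates.

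In 6 genes a dimmer probe set was called and the one used was not. The kinase inhibitor CDKN2B, named here after its values were seen, differed by 0.33 ± 0.32 on the probe set used (means 10.00 in Fibroblast and 10.34 in SKN, limma adjusted p 0.655) and by 1.95 ± 0.25 on the dimmer one (means 5.52 and 7.48, adjusted p 0.00562). The adhesion protein SDK1, chosen likewise, differed by 1.06 ± 0.26 (adjusted p 0.0663) and 2.00 ± 0.25 (adjusted p 0.00499).

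Probe sets without a single gene symbol, 15660 of the 32205, held 30.1% of the calls. Of these 15660 probe sets 324 were called (2.07%, under the 3.34% of the whole table). Of the 324, 216 were higher and 108 lower, with differences between -3.09 and 4.28. Of the called ones 29 were at least 8-fold higher in SKN and 3 at least 8-fold lower.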
